A study of Mus musculus with 6 samples.

Results

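Collagens are the main structural proteins of the extracellular matrix, and the genes that encode their chains were examined in primary myoblasts, the proliferating muscle progenitors that grow out of digested muscle. A collagen gene was taken to be any protein-coding gene whose symbol has the form Col, a type number, the letter a and a chain number. The count table held 44 such genes among 54532 genes in all, of which 11 encode fibrillar chains, 8 encode chains of the basement membrane and 25 encode chains of other types. The 3 libraries labelled WT and the 3 labelled eIF5A-KO came from hind-limb myoblasts of 3-week-old mice, which were dissociated with dispase and collagenase, grown with FGF at a labelled 10 ug/ml and collected on day 2. In the knockout, tamoxifen-activated CreERT2 expressed from Pax7, the gene that marks satellite cells (the muscle stem cells), deletes floxed eIF5A alleles (Pax7CreERT2/+;eIF5A f/f). The controls are given as WT, and the study describes its wild-type control genotype in more than one way, as Pax7CreERT2/+ or as carrying floxed eIF5A without Cre. The cells were not sorted, the deletion is limited to cells that have expressed Pax7, and in such bulk RNA fewer cells of a type cannot be told apart from less RNA per cell. The study speaks of bulk RNA-seq in triplicate experiments, without saying whether those are separate animals or cultures, and the labels do not say so either, so the p-values measure the spread between these libraries, which may be technical.

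The comparison asks how the RNA of each collagen gene differed between the libraries labelled eIF5A-KO and WT. Between 16281216 and 17734551 reads were counted per library. Eif5a, the gene targeted in the knockout, was at 1603, 986 and 1238 CPM in WT replicates 1 to 3 and at 1364, 1459 and 1059 CPM in replicates 1 to 3 labelled eIF5A-KO, where CPM are read counts relative to the TMM-scaled size of the library. Its RNA thus showed no drop under the knockout label (log2 fold change 0.02, adjusted p = 0.993 in edgeR), so directions below refer to the labels. The myogenic markers were present in every library, with Myod1 at 196 to 550 CPM, and so were markers of endothelial cells, mural cells and fibroblasts. WT replicate 1 stood apart from the other libraries: mitochondrial transcripts took 5.75% of its counts and 2.11% to 3.50% of those of the other 5 libraries. The 8 endothelial markers summed to 1198 CPM in WT replicate 1 and to between 2154 and 3182 CPM elsewhere, and the 10 fibroblast markers to 3911 CPM against 2533 to 3374 CPM.

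Each collagen chain carries stretches of Gly-X-Y triplets, and 3 chains wind around each other into a triple helix. Fibrillar collagens (types I, II, III, V, XI, XXIV and XXVII) pack into the fibrils that bear tension, type IV collagen forms the network of the basement membrane that wraps each muscle fibre and capillary, and type VI collagen builds the beaded filaments that link the basement membrane to the interstitial matrix. In muscle, most fibrillar collagen is made by fibroblasts, and the basement membrane next to satellite cells is part of their niche. eIF5A, the factor deleted in the knockout, helps ribosomes through sequences at which peptide bonds form slowly, such as runs of proline. The libraries analysed here measure RNA and not translation.

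Because runs of proline codons are a feature of these genes that the selection did not use, they were counted in the longest annotated coding sequence of each gene. Codons for proline, proline and glycine in a row (CCN, CCN, GGN) were found in all 44 collagen genes, from 2 to 74 times per gene with a median of 24.5. Of the other 21786 protein-coding genes, 16.7% had any such run. At least 10 runs occurred in 37 collagen genes and in 17 other genes. By contrast, 3 proline codons in a row were present in 15 of the 44 collagen genes and in 19.9% of the other genes. Below are 3 exons that show the repeat, each the exon of at most 150 bases with the most such runs in Col1a1 (exon 5 of 51, chr11:94938504-94938605, plus strand), Col4a1 (exon 31 of 52, chr8:11220982-11221095, minus strand) and Col6a2 (exon 11 of 28, chr10:76610650-76610703, minus strand). They are coding sequence from GENCODE M21 on GRCm38, written 5′ to 3′, and capitals mark the runs.
Col1a1: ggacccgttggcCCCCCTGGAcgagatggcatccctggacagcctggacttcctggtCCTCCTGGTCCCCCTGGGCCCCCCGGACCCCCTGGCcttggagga
Col4a1: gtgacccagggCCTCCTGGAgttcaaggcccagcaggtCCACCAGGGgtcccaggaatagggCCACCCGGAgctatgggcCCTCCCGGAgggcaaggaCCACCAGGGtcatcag
Col6a2: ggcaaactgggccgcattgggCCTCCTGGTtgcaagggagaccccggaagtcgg
The exon of Col1a1 and that of Col4a1 each held 5 runs, and that of Col6a2 held 1. Over the whole coding sequence the 3 genes had 45, 43 and 6 runs. The uninterrupted glycine repeat was 337 to 344 triplets long in the chains of types I, II, III, V and XI, and 216 and 217 triplets long in Col24a1 and Col27a1. Across the 34 collagen genes that passed the expression filter, the number of runs per 100 codons and the log2 fold change had a Spearman rho of -0.14, which describes these genes only, since they share libraries and are not independent.

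No collagen gene passed the test after adjustment over all genes, and most estimates lay above zero. Of the 44 genes, 34 passed the expression filter, and by the sign of the estimate the eIF5A-KO label was above WT for 28 of these and below it for 6. Over all 14679 tested genes, 7097 were higher and 7582 lower. The median log2 fold change was 0.38 over the collagen genes and -0.01 over all tested genes. In edgeR 0 collagen genes had an adjusted p under 0.05, where 0.0204% of all tested genes did. DESeq2 called 2, Col6a2 and Col26a1, where it called 0.599% of all genes, and limma-voom and limma on FPKM called 0 collagen genes and 0% of all genes. Without the expression filter edgeR called 4, Col6a2, Col19a1, Col23a1 and Col26a1, where it called 0.924% of all genes. With an unadjusted p under 0.05, 7 collagen genes were higher, against a background of 2.74% of all tested genes: Col1a1, Col1a2, Col5a2, Col6a1, Col6a2, Col6a3 and Col23a1. In the same way 2 were lower, Col19a1 and Col26a1, against a background of 4.02%. Of these, Col19a1 passed the expression filter only through its WT libraries. At a change of over 2-fold with an unadjusted p under 0.05, the study's criterion, 0 collagen genes were higher (background 0.531%) and 2 were lower (background 1.32%), again Col19a1 and Col26a1. The 3 libraries of one label lay wholly above those of the other for 7 collagen genes that were higher (background 5.68%) and for 1 that was lower (background 6.83%).

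**Figure D1:**
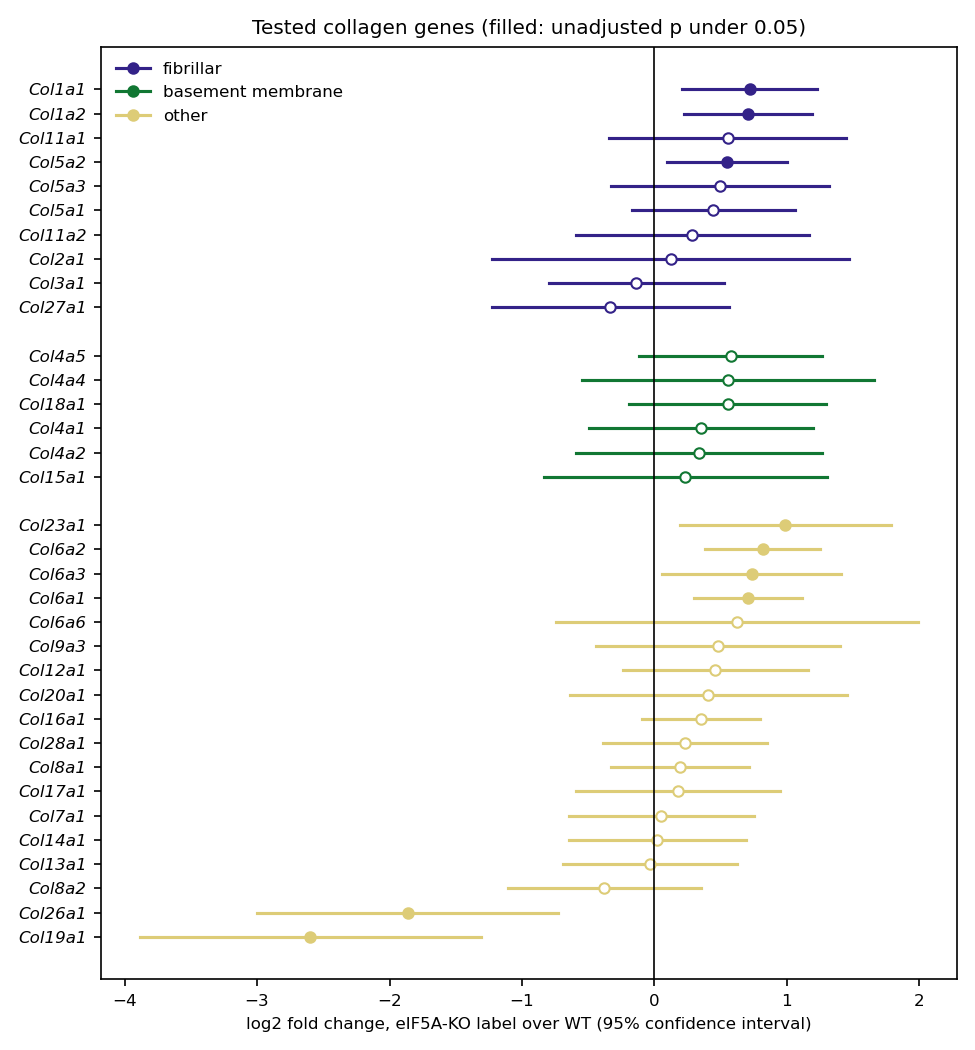
Log2 fold change (horizontal axis, eIF5A-KO label over WT, edgeR) of the 34 tested collagen genes, grouped by class and ordered by estimate; bars are 95% confidence intervals and filled points have an unadjusted p under 0.05. The 6 basement membrane genes all lie to the right of zero with intervals that cross it, and the lowest points are Col26a1 at -1.86 and Col19a1 at -2.60.

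Much of the shift rested on WT replicate 1, which had the lowest level of all 6 libraries for 23 of the 34 tested collagen genes, or 67.6%, compared with 27.9% of all tested genes. Without it, estimates lay above zero for 23 collagen genes and below for 12, and the median log2 fold change was 0.14. All 7 genes with an unadjusted p under 0.05 kept it in that fit, Col6a6 joined them (background 4.72%), Col27a1 joined the lower ones (background 5.44%), and Col26a1 reached an adjusted p of 0.0366 in edgeR, where 0.372% of all genes were called. Without WT replicate 2, the library with the highest WT level of 26 of the 34 genes, the median was 0.71 and 13 genes were higher at that threshold (background 3.97%), while Col23a1 was lost. Leaving out WT replicate 3 left 4 of the 7 (background 1.89%), with Col5a2, Col6a3 and Col23a1 lost, and leaving out any 1 KO-labelled library left 5 (backgrounds 1.23%, 1.78% and 3.65% without replicates 1, 2 and 3). Col6a3 was lost each time, together with Col23a1 without replicate 1 and with Col5a2 without replicate 2 or 3. With library size alone as the scaling, 5 of the 7 were left, with Col5a2 and Col6a3 lost (background 2.08%). The collagen genes varied more between WT libraries than between those labelled eIF5A-KO: the coefficient of variation was lower in the latter for 30 of 34 genes, with medians of 0.424 and 0.189, and over all tested genes the medians were 0.215 and 0.150.

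Collagen genes took 0.263%, 0.815% and 0.571% of the counted reads in WT replicates 1 to 3, and 0.692%, 0.654% and 0.770% in replicates 1 to 3 labelled eIF5A-KO. The mean share was 0.550% ± 0.276 (SD, n = 3) in WT and 0.705% ± 0.0591 (SD, n = 3) in the KO-labelled libraries, and the ranges overlapped. Without WT replicate 1 the WT mean was 0.693%. Basement membrane genes held most of these reads, with 0.132% to 0.540% in WT and 0.373% to 0.496% under the knockout label. Fibrillar genes held 0.0936% to 0.196% and 0.184% to 0.197%. The 25 genes of other types together held 0.0379% to 0.0791% in WT and 0.0834% to 0.0899% in the libraries labelled eIF5A-KO, and here the ranges did not overlap. Of these genes, Col6a1, Col6a2 and Col6a3 had the most reads in every library. Among the 18 tested genes of the class, 4 lay wholly higher under the knockout label (background 5.68%) and 1 wholly lower (background 6.83%).

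**Figure D2:**
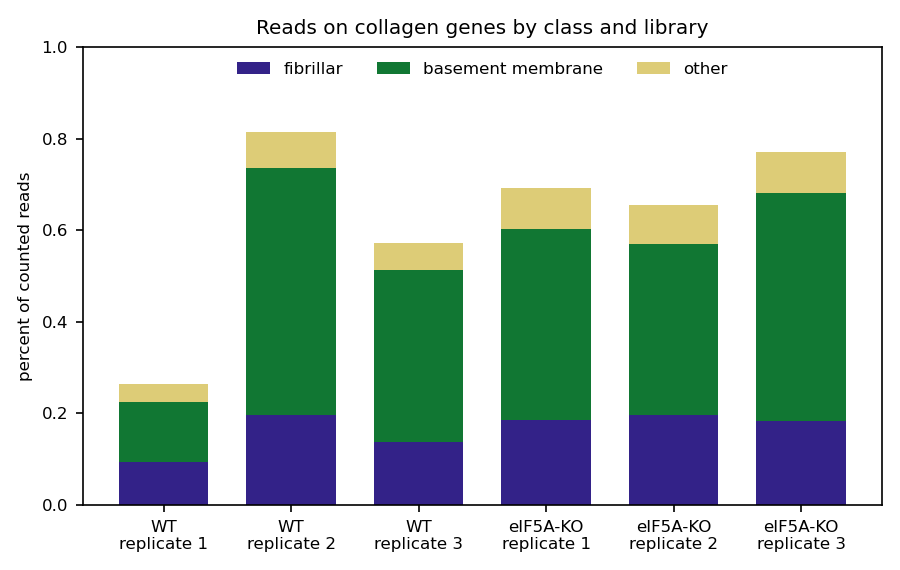
Percent of counted reads (vertical axis, from zero) that fell on fibrillar, basement membrane and other collagen genes in each of the 6 libraries. WT replicate 1 has the shortest bar, at 0.263%, and WT replicate 2 the tallest, at 0.815%, so that the KO-labelled libraries lie between them.

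Among the fibrillar genes, those of type I and Col5a2 lay higher in every KO-labelled library than in any WT library, and the levels of Col3a1 overlapped. Of the 11 genes 10 were tested: 8 estimates lay above zero and 2 below, with a median log2 fold change of 0.47, and 3 had an unadjusted p under 0.05 and were higher (background 2.74%). The median was 0.17 without WT replicate 1 and 0.80 without WT replicate 2. WT replicate 1 had the lowest level of all 6 libraries for each of the 10.

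Col1a1 (ENSMUSG00000001506, chr11:94936224-94953042, plus strand, up to 51 exons) encodes the alpha 1 chain of type I collagen, the main protein of tendon, bone and scar. Its level was 110, 190 and 130 CPM in WT replicates 1 to 3 and 204, 249 and 256 CPM in replicates 1 to 3 labelled eIF5A-KO. Every KO-labelled library lay above every WT library. The estimated log2 fold change came to 0.72 (standard error 0.23, 95% confidence limits 0.21 and 1.23), with an unadjusted p of 0.0106 and an adjusted p of 0.504 in edgeR. Col1a2 (ENSMUSG00000029661, chr6:4504814-4541544, plus strand, up to 52 exons) encodes the alpha 2 chain of the same trimer. It was at 344, 486 and 405 CPM in WT and at 743, 748 and 527 CPM under the knockout label, again without overlap. Its log2 fold change was 0.71 (95% confidence limits 0.22 and 1.19, unadjusted p = 0.00893, adjusted p = 0.495 in edgeR). Without WT replicate 1 both estimates stayed above zero, at 0.57 for Col1a1 and 0.60 for Col1a2.

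Type V collagen is a minor fibrillar collagen that starts fibrils of type I and limits their width. Col5a2 (ENSMUSG00000026042, chr1:45374321-45503282, minus strand), its alpha 2 chain, was at 239, 374 and 274 CPM in WT and at 413, 444 and 440 CPM in the libraries labelled eIF5A-KO. The labels did not overlap, and the log2 fold change was 0.55 (95% confidence limits 0.09 and 1.00, adjusted p = 0.616 in edgeR). Col5a1 (ENSMUSG00000026837, chr2:27886425-28039514, plus strand), the alpha 1 chain, was at 49.3, 113 and 72.1 CPM in WT and at 94.9, 112 and 112 CPM under the knockout label. Those ranges overlapped because WT replicate 2 was as high as the KO-labelled libraries, and the log2 fold change of 0.44 had an interval from -0.17 to 1.06. Without WT replicate 1 the estimates were 0.42 for Col5a2 and 0.21 for Col5a1, and without WT replicate 2 they were 0.75 and 0.81. Col5a3, a further chain of the type, ranged from 40.5 to 132 CPM in WT and from 122 to 157 CPM in the KO-labelled libraries, with a log2 fold change of 0.50.

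Col3a1 (ENSMUSG00000026043, chr1:45311538-45349706, plus strand) encodes type III collagen, which forms mixed fibrils with type I in soft tissues. It lies 24614 bases from Col5a2. Its level was 219, 527 and 314 CPM in WT and 298, 364 and 303 CPM in the libraries labelled eIF5A-KO. All 3 knockout values fell inside the WT range. The log2 fold change was -0.14 with a 95% confidence limits -0.80 and 0.52 and an adjusted p of 0.973 in edgeR. It was -0.38 without WT replicate 1 and turned to 0.27 without WT replicate 2. Col11a1 and Col11a2, the cartilage relatives of type V, and Col2a1, the main collagen of cartilage, were low, at means of 0.348 FPKM or less over the 6 libraries (FPKM is a read count scaled by gene length and library size). Their log2 fold changes were 0.55, 0.29 and 0.12. Col27a1, also a fibrillar collagen of cartilage, had an estimate of -0.33, with 2.97 to 9.12 CPM in WT and 4.50 to 6.80 CPM under the knockout label. Each of these 4 intervals included zero.

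**Figure D3:**
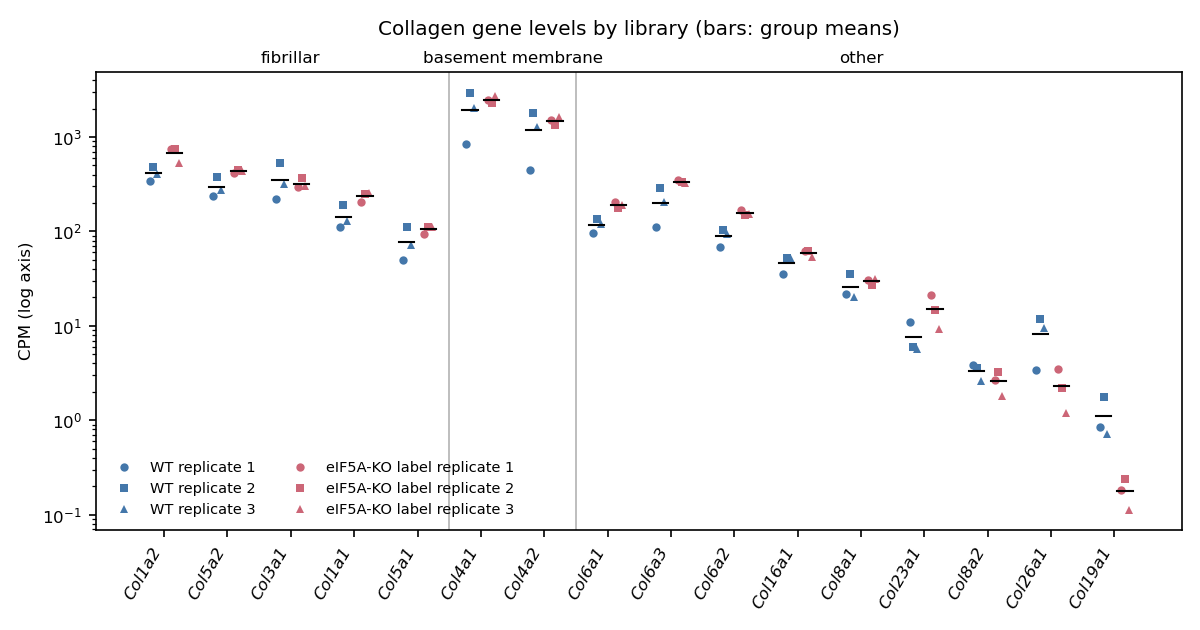
Level in CPM (vertical log axis) of 16 collagen genes in each library, by class; points are libraries, WT in blue and eIF5A-KO label in red, and black bars are group means. For Col1a1, Col1a2, Col5a2 and the 3 type VI genes every red point is above every blue one, while for Col4a1 and Col4a2 the red points lie inside the WT range, which runs from WT replicate 1 up to WT replicate 2.

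The 2 most abundant collagen transcripts in these cultures were Col4a1 and Col4a2 of the basement membrane. For each tested gene of this class the libraries of the 2 labels overlapped. Of the 8 genes 6 were tested, all 6 estimates lay above zero with a median log2 fold change of 0.45, and 0 had an unadjusted p under 0.05 in edgeR (backgrounds 2.74% higher and 4.02% lower). Without WT replicate 2 the median was 0.78 and 3 genes, Col4a1, Col18a1 and Col4a5, were higher at that threshold (background 3.97%), and without WT replicate 1 the median was 0.13. Col4a1 (ENSMUSG00000031502, chr8:11198423-11312826, minus strand) and Col4a2 (ENSMUSG00000031503, chr8:11312805-11449287, plus strand) encode the chains of the common type IV trimer. They averaged 294 and 200.1 FPKM over the 6 libraries, which placed them at ranks 175 and 253 of all genes, and no other collagen gene exceeded 43.3 FPKM. Col4a1 was at 851, 2933 and 2043 CPM in WT and at 2448, 2263 and 2725 CPM in the libraries labelled eIF5A-KO. Col4a2 was at 442, 1808 and 1286 CPM in WT and at 1511, 1341 and 1622 CPM under the knockout label. For both genes WT replicate 1 was lowest, WT replicate 2 was highest and the KO-labelled libraries lay between. The log2 fold change was 0.35 for Col4a1 (95% confidence limits -0.50 and 1.2, adjusted p = 0.935 in edgeR) and 0.34 for Col4a2 (-0.59 to 1.27, adjusted p = 0.945 in edgeR). Without WT replicate 1 the estimates were 0.003 and -0.04, and without WT replicate 2 they were 0.78 and 0.79.

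Col4a1 and Col4a2 lie head to head and share their promoter, which is shown because the pair is the most abundant and both genes ordered the WT libraries alike. Their annotated start sites are 21 bases apart, the 300-base windows from 250 bases before to 50 bases after each start share 78 bases, and the gene bodies overlap by 22 bases. The sequences below are from RefSeq on GRCm38.p6, each 5′ to 3′ on the strand of its gene (Col4a1 at chr8:11312777-11313076, minus strand, and Col4a2 at chr8:11312555-11312854, plus strand). Capitals mark CCAAT and GGGCGG, each searched on both strands, with no overlap between the 2 motifs in these windows.
Col4a1: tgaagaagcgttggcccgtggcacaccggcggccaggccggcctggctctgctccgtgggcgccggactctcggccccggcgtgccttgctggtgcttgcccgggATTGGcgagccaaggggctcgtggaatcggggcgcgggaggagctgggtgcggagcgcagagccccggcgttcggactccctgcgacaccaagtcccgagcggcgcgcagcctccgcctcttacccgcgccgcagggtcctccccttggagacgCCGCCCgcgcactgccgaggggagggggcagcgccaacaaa
Col4a2: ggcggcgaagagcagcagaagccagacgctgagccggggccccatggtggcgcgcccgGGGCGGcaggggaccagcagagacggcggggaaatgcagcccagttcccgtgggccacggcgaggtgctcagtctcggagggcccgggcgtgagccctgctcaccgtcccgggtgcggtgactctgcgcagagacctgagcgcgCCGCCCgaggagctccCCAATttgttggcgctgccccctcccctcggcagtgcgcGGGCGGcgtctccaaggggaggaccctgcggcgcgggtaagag
The Col4a1 window held 1 CCAAT and 1 GGGCGG, and the Col4a2 window 1 and 3. Both windows lacked TATAAA and CANNTG, which were searched on both strands too. Promoter windows were found for 35 of the 44 collagen genes. These genes had 38 windows. CCAAT was in 13 of the 38 and GGGCGG in 23, compared with 37.4% and 35.7% of all 32851 windows. TATAAA was in 5 of the 38 and in 13.6% of all windows, and CANNTG in 20 of the 38 and in 72.3%. These are matches of letters, not binding sites.

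The other basement membrane genes were less abundant in FPKM. Col18a1 and Col15a1 encode the chains whose ends release endostatin and a related fragment. Col18a1 ranged from 106 to 279 CPM in WT and from 230 to 372 CPM in the libraries labelled eIF5A-KO, with a log2 fold change of 0.55 (95% confidence limits -0.19 and 1.30). Its gene body overlaps that of Slc19a1 on the opposite strand by 8825 bases, and the reads counted on Slc19a1 came to 12.9% of its own. Col15a1 was at 15.0 to 53.5 CPM in WT and at 32.0 to 75.5 CPM under the knockout label, where replicate 3 alone was above the WT range. Col4a5, a type IV chain of kidney and smooth muscle, averaged 0.769 FPKM with a log2 fold change of 0.58, and Col4a4, best known from the kidney filter, averaged 0.0861 FPKM with an estimate of 0.55. Both intervals included zero. Col4a3 and Col4a6 did not pass the filter, with 1 to 8 and 2 to 8 reads per library.

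The main chains of type VI collagen were each higher in all libraries labelled eIF5A-KO than in any WT library. Col6a1, Col6a2 and Col6a3 encode the chains of the common type VI trimer, a component of the satellite cell niche whose loss causes muscular dystrophy. Col6a1 (ENSMUSG00000001119, chr10:76708792-76726168, minus strand) was at 96.6, 136 and 121 CPM in WT and at 207, 179 and 190.2 CPM in the libraries labelled eIF5A-KO. Its log2 fold change was 0.70 (standard error 0.18, 95% confidence limits 0.30 and 1.11, unadjusted p = 0.00344, adjusted p = 0.398 in edgeR). Col6a2 (ENSMUSG00000020241, chr10:76595762-76623630, minus strand), 85161 bases from Col6a1, was at 68.1, 104 and 94.9 CPM in WT and at 168, 148 and 154 CPM under the knockout label. Its log2 fold change was 0.82 (standard error 0.19, 95% confidence limits 0.38 and 1.25, unadjusted p = 0.00199, adjusted p = 0.379 in edgeR). DESeq2 gave Col6a2 an adjusted p of 0.0345. Col6a3 (ENSMUSG00000048126, chr1:90765923-90843971, minus strand) was at 111, 289 and 205 CPM in WT and at 351, 335 and 323 CPM in the KO-labelled libraries. Its log2 fold change was 0.74 with a wider interval, 0.06 to 1.41, and an adjusted p of 0.685 in edgeR.

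Without WT replicate 1 the estimates were 0.59 for Col6a1, 0.67 for Col6a2 and 0.45 for Col6a3. Col6a3 lost its unadjusted p under 0.05 when WT replicate 3 or any single KO-labelled library was left out. The alternative chains of type VI, Col6a4, Col6a5 and Col6a6, were near the limit of detection. Of these, Col6a6 was tested, with 3 to 18 reads per library and a log2 fold change of 0.62 (95% confidence limits -0.75 and 1.99).

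The estimates of the mural and of the endothelial markers had the same sign as those of type I and type VI collagen. Mural cells are the pericytes and smooth muscle cells of vessels. Of 8 mural markers, all 8 estimates lay above zero and 4 had an unadjusted p under 0.05: Myh11, Pdgfrb, Cspg4 and Kcnj8, of which Myh11 had an adjusted p of 0.0486 in edgeR and a log2 fold change of 1.52. The share of all tested genes that were higher at that threshold was 2.74%, and 4.02% were lower, which are also the backgrounds of the marker counts that follow. Their summed level was 416 to 755 CPM in WT and 794 to 905 CPM under the knockout label, and no marker of the list was at zero. Of the 10 fibroblast markers, 5 estimates lay above zero and 5 below, from 0.42 for Pi16 to -0.38 for Lum. None of the 10 had an unadjusted p under 0.05, and their sums of 2533 to 3911 CPM and 2736 to 3374 CPM overlapped. The 8 endothelial markers summed to 1198 to 2575 CPM in WT and 2154 to 3182 CPM in the KO-labelled libraries, with 8 estimates above zero and 1 marker, Emcn, with an unadjusted p under 0.05. Of 8 myogenic markers 7 estimates lay below zero, and Myog and Pax7 had an unadjusted p under 0.05. The tenocyte sums were 264 to 344 and 280 to 352 CPM, with 1 of 5 markers, Scx, lower at that threshold. The 8 macrophage markers summed to 64.3 to 137 CPM in WT and 65.9 to 172 CPM under the knockout label, where Cd68 was higher at that threshold. Of 5 chondrocyte markers 1, Sox9, was tested, and Matn1 was at zero in every library. With WT replicate 1 left out, the same 4 mural markers, Emcn and Mfap5 were higher at that threshold, and 0 macrophage markers were (background 4.72%). Estimates lay above zero for 6 of 8 mural, 7 of 8 endothelial and 8 of 10 fibroblast markers. In that fit 6 of 8 myogenic markers were lower (background 5.44%), of which Myog and Pax7 had an adjusted p under 0.05 in edgeR. The part of these cell types in the collagen differences was not tested.

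The remaining types lie on fibril surfaces, in networks or across the cell membrane. Col16a1 (ENSMUSG00000040690, chr4:130047840-130099283, plus strand), a fibril-associated collagen, was at 35.2, 52.2 and 51.1 CPM in WT and at 62.4, 61.6 and 53.1 CPM in the libraries labelled eIF5A-KO. The labels did not overlap, by less than 1 CPM between WT replicate 2 and KO-labelled replicate 3, and the log2 fold change was 0.35 (95% confidence limits -0.09 and 0.80, adjusted p = 0.820 in edgeR), or 0.20 without WT replicate 1. Col23a1 (ENSMUSG00000063564, chr11:51289920-51583918, plus strand), a collagen anchored in the cell membrane, was at 11.1, 5.94 and 5.73 CPM in WT and at 21.1, 14.6 and 9.30 CPM under the knockout label. WT replicate 1 was its highest WT library and lay above KO-labelled replicate 3, so the ranges overlapped. Its log2 fold change was 0.99 (95% confidence limits 0.19 and 1.79, unadjusted p = 0.0204, adjusted p = 0.584 in edgeR). The estimate was 1.37 without WT replicate 1, and it lost its unadjusted p under 0.05 without WT replicate 2 (0.84), WT replicate 3 (0.83) or KO-labelled replicate 1 (0.67).

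Type VIII collagen forms hexagonal networks under endothelium. Col8a1 (ENSMUSG00000068196, chr16:57624258-57754737, minus strand) was at 21.9, 35.6 and 20.4 CPM in WT and at 30.3, 27.4 and 31.5 CPM in the libraries labelled eIF5A-KO, inside the WT range. Col8a2 (ENSMUSG00000056174, chr4:126286793-126314330, plus strand) was at 3.88, 3.61 and 2.60 CPM in WT and at 2.69, 3.26 and 1.81 CPM under the knockout label, with overlap. Their log2 fold changes were 0.19 and -0.38, and both intervals included zero. The estimate of Col8a1 was 0.09 without WT replicate 1, 0.49 without WT replicate 2 and 0.05 without WT replicate 3, and that of Col8a2 was -0.17 without KO-labelled replicate 3.

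The lowest estimates of all were those of Col19a1 and Col26a1. Col19a1 (ENSMUSG00000026141, chr1:24261890-24587472, minus strand, up to 51 exons), a fibril-associated collagen known from the muscle layer of the oesophagus and from differentiating muscle cells, had 13, 33 and 12 reads in WT and 3, 4 and 2 reads in the libraries labelled eIF5A-KO. That is 0.840, 1.75 and 0.709 CPM against 0.184, 0.237 and 0.113 CPM, and the labels did not overlap. The estimated log2 fold change came to -2.60 (standard error 0.57, 95% confidence limits -3.88 and -1.31, unadjusted p = 0.00128, adjusted p = 0.362 in edgeR). Leaving out each library in turn gave -2.84 to -2.08. Col19a1 passed the expression filter only through its WT libraries, so its p and its lack of overlap are not independent of that selection. On the log2(FPKM + 1) scale the difference was -0.17, since a pseudocount of 1 is large beside these levels. Col26a1 (ENSMUSG00000004415, chr5:136741759-136883209, minus strand, up to 13 exons), which was first described in testis and ovary, had 53, 225 and 161 reads in WT and 57, 37 and 21 under the knockout label. Its level was 3.43, 11.9 and 9.51 CPM and 3.49, 2.19 and 1.19 CPM. WT replicate 1 and KO-labelled replicate 1 were level and the other WT libraries were higher. The log2 fold change was -1.86 (95% confidence limits -3.0 and -0.73, unadjusted p = 0.00472, adjusted p = 0.416 in edgeR), and the adjusted p was 0.0291 in DESeq2. Leaving out WT replicate 1 gave -2.22 and leaving out WT replicate 2 gave -1.502. Reads counted on Gm20485, which lies within Col26a1 on the same strand, came to 10.5% of its total. Myog, a marker of myogenic differentiation, was also lower in the same libraries, at 14.4, 76.3 and 32.3 CPM in WT and 8.93, 5.09 and 2.10 CPM under the knockout label (log2 fold change -2.94, unadjusted p = 0.00119, adjusted p = 0.362 in edgeR), and its part in these results was not tested.

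The other 8 tested genes of these types had intervals that included zero. Col12a1 and Col14a1, fibril-associated collagens of tendon and fascia, had log2 fold changes of 0.46 and 0.02. Col20a1 and Col9a3, of the same family, had 0.41 and 0.48, but gene bodies that overlap theirs took 60.7% and 284% as many reads, so these 2 are uncertain. The membrane collagens Col13a1, a component of the neuromuscular junction, and Col17a1, of the hemidesmosome, had -0.035 and 0.18. Col7a1, the anchoring fibril collagen of skin, had 0.05, and Col28a1, related to type VI, had 0.23. Their levels ranged from a mean of 0.294 FPKM for Col9a3 to one of 3.35 FPKM for Col12a1. Over all 18 tested genes of other types, 14 estimates lay above zero and 4 below, with a median of 0.29, which was 0.09 without WT replicate 1 and 0.45 without WT replicate 2.

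A further 10 collagen genes were not tested because too few reads fell on them. Besides Col4a3 and Col4a6, they were the fibrillar Col24a1, the growth plate collagen Col10a1, Col22a1 of tissue junctions, Col9a1 and Col9a2 of cartilage, the neuronal Col25a1, and Col6a4 and Col6a5. None had more than 11 reads in any library. Col9a1 had 1 read over the 6 libraries, Col6a5 had 3 and Col9a2 had 9. Col22a1 had 0, 11 and 8 reads in WT and 0, 9 and 10 reads under the knockout label. No difference in these genes was detectable at this depth.

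Because chains of one type assemble together, and types I and III share fibrils, ratios between such chains were compared within each library, where library scaling cancels. Each was a ratio of FPKM, tested on the log2 scale with an exact two-sided permutation test, whose smallest possible p is 0.1 for 3 libraries against 3, and adjusted over 7 ratios. The ratio of Col1a1 to Col1a2 was 0.607, 0.740 and 0.609 in WT and 0.521, 0.630 and 0.919 in the libraries labelled eIF5A-KO (difference of mean log2 ratios 0.05, exact p = 0.8). The ratio was below 1 in each library. The length that the authors used for Col1a2 is 12426 bases, while its longest coding transcript has 5348, and per kilobase of coding transcript the ratio was 0.248 to 0.438. The lengths set the level of a ratio and leave the difference between labels as it is. The ratio of Col4a1 to Col4a2 was 1.71, 1.44 and 1.41 in WT and 1.44, 1.496 and 1.49 under the knockout label (difference -0.04, exact p = 0.9), although the level of either gene varied by more than 3-fold among the WT libraries. The ratio of Col5a1 to Col5a2 was 0.233 to 0.340 in WT and 0.259 to 0.287 in the KO-labelled libraries (difference -0.05, exact p = 0.8).

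The ratio of Col3a1 to Col1a1 separated the labels most widely. It was 1.33, 1.85 and 1.61 in WT and 0.976, 0.977 and 0.791 in the libraries labelled eIF5A-KO. The mean log2 ratio was 0.66 ± 0.24 (SD) in WT and -0.14 ± 0.18 (SD) in the KO-labelled libraries, a difference of -0.80. The groups did not overlap, the exact p was 0.1 and the adjusted p of this permutation test was 0.35. With each library left out in turn the difference ranged from -0.93 to -0.68. Per kilobase of coding transcript the ratio was 1.26 to 2.95, above 1 in all 6 libraries, so that its crossing of 1 rests on the lengths that the authors used. Within type VI, the ratio of Col6a1 to Col6a2 was 2.69, 2.50 and 2.42 in WT and 2.35, 2.30 and 2.35 under the knockout label. The difference was -0.12, or -0.08 without WT replicate 1, and the groups did not overlap (exact p = 0.1, adjusted p = 0.35). Per kilobase of coding transcript this ratio was 1.16 to 1.37, since the length used for Col6a2 is 8326 bases and its longest coding transcript has 3949. The ratio of Col6a3 to Col6a1 was 0.421, 0.777 and 0.620 in WT, wider than the 0.619 to 0.684 of the KO-labelled libraries (difference 0.13, exact p = 0.8). The ratio of Col8a1 to Col8a2 was 3.24 to 5.66 in WT and 4.81 to 9.94 in the KO-labelled libraries (difference 0.64, exact p = 0.2, adjusted p = 0.467). That difference was 0.36 without KO-labelled replicate 3 and 0.42 without WT replicate 1.

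**Figure D4:**
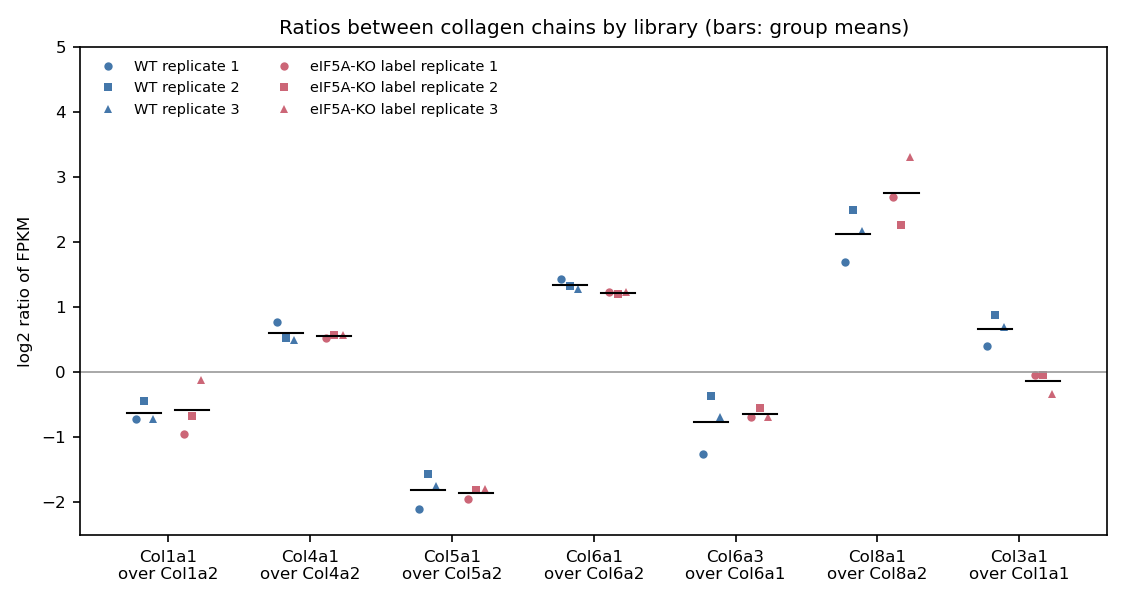
Log2 of the FPKM ratio of 2 chains (vertical axis) in each library for 7 pairs; blue points are WT, red points are the eIF5A-KO label, black bars are group means and the grey line marks equal FPKM. For Col3a1 over Col1a1 every blue point is above every red one, with the position of zero set by the authors' gene lengths, and for Col4a1 over Col4a2 all 6 libraries lie between ratios of 1.41 and 1.71.

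Genes that modify, fold, export, cut and cross-link collagen, together with 10 collagen receptors and 14 genes of fibril-binding matrix proteins, were followed in a list of 70, of which 64 were tested. Estimates lay above zero for 47 and below it for 17, with a median log2 fold change of 0.20. In edgeR 0 had an adjusted p under 0.05, 9 were higher with an unadjusted p under 0.05 and 1 was lower, against the backgrounds of 2.74% and 4.02% given above. After WT replicate 1 was left out, 11 of 65 tested genes were higher at that threshold (background 4.72%). Plod3 and Creb3l1 were no longer among them, and P4ha2, Fkbp10, Lox and Thbs2 were new. In that fit 2 genes were lower (background 5.44%), Ddr1 and Adamts14, and Adamts14 had an adjusted p under 0.05 in edgeR. Hydroxylases and glycosyltransferases act first, on the growing chain. The list of prolyl and lysyl modification holds 15 genes, among them Crtap, P3h4 and Ppib, which are neither. Of the 15 genes 12 estimates lay above zero, with a median of 0.25. P3h1, a prolyl 3-hydroxylase, was at 42.1, 52.4 and 53.6 CPM in WT and at 70.3, 71.8 and 62.8 CPM under the knockout label (log2 fold change 0.47, adjusted p = 0.611 in edgeR). Plod3, a lysyl hydroxylase with glycosyltransferase activity, was at 178, 182 and 203 CPM and at 271, 246 and 225 CPM (log2 fold change 0.40, adjusted p = 0.689 in edgeR). Neither gene's libraries overlapped between labels. P4ha1, the main prolyl 4-hydroxylase subunit, was at 213, 173 and 169 CPM in WT and at 189.7, 217 and 224 CPM in the KO-labelled libraries, and Plod2, the lysyl hydroxylase of telopeptides, was at 61.0, 54.7 and 40.5 CPM and at 51.5, 62.0 and 68.3 CPM, both with overlap.

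Of the 16 chaperones and export factors, 9 estimates lay above and 7 below zero, with a median log2 fold change of 0.01. In the fit that left out WT replicate 1, 14 lay above and 2 below, with a median of 0.13. Serpinh1, the collagen chaperone HSP47, was at 1340.0, 1198 and 1222 CPM in WT and at 1212, 1281 and 1313 CPM in the libraries labelled eIF5A-KO (log2 fold change 0.02, adjusted p = 0.993 in edgeR). Creb3l1, a transcription factor that induces collagen and its secretory machinery, was at 9.95, 16.1 and 16.7 CPM in WT and at 24.7, 18.7 and 20.4 CPM under the knockout label (log2 fold change 0.57, adjusted p = 0.696 in edgeR), without overlap. Cleavage of the propeptides follows secretion. Adamts2, which removes the N-propeptide of type I, was at 82.7, 116 and 96.9 CPM in WT and at 144, 162 and 123 CPM in the KO-labelled libraries (log2 fold change 0.54, adjusted p = 0.571 in edgeR). Adamts14, a protease of the same activity, went the other way, at 11.2, 53.0 and 28.9 CPM and at 9.73, 11.8 and 15.4 CPM (log2 fold change -1.33, adjusted p = 0.560 in edgeR), with overlap because WT replicate 1 was low. Bmp1, the C-proteinase, was at 82.7, 109 and 113 CPM in WT and at 135, 115 and 113 CPM under the knockout label, with replicate 3 of both labels level. Pcolce, which enhances the C-proteinase, was at 247, 196 and 263 CPM and at 417, 367 and 244 CPM (log2 fold change 0.54, adjusted p = 0.710 in edgeR), with replicate 3 of the KO-labelled libraries inside the WT range.

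All 5 lysyl oxidases, which start the cross-links between chains, had estimates above zero, with a median log2 fold change of 0.38. Loxl3 was at 75.9, 77.1 and 65.3 CPM in WT and at 102, 114 and 80.3 CPM in the libraries labelled eIF5A-KO (log2 fold change 0.44, adjusted p = 0.698 in edgeR). Lox itself was at 353, 275 and 172 CPM and at 377, 365 and 299 CPM, with overlap. Of 9 tested collagen receptors 0 had an unadjusted p under 0.05, and without WT replicate 1 Ddr1 was lower at that threshold (background 5.44%). Among 12 tested genes of fibril-binding matrix proteins, 3 were higher at that threshold in the main analysis. Bgn, which encodes the small proteoglycan biglycan, was at 865, 816 and 872 CPM in WT and at 1615, 1602 and 1293 CPM under the knockout label, well clear of the WT range, with a log2 fold change of 0.82, an unadjusted p of 0.00146 and an adjusted p of 0.362 in edgeR. Thbs1, which encodes thrombospondin 1, was at 1078, 1064 and 648 CPM and at 1404, 1449 and 1269 CPM. Sparc, a collagen-binding matricellular protein, was at 2041, 1711 and 1898 CPM and at 2761, 2490 and 2404 CPM. Their log2 fold changes were 0.56 and 0.44, without overlap.

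**Figure D5:**
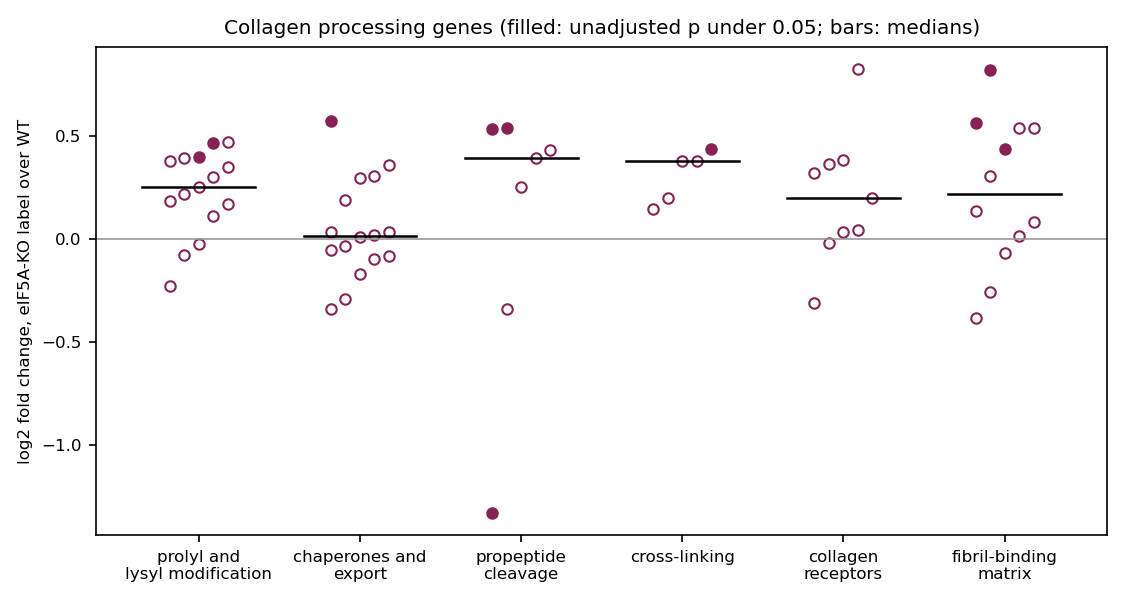
Log2 fold change (vertical axis, eIF5A-KO label over WT, edgeR) of the 64 tested genes of collagen processing, collagen receptors and fibril-binding matrix, 1 point per gene by group; filled points have an unadjusted p under 0.05 and black bars are medians. The bar of chaperones and export factors lies at 0.01 and that of the lysyl oxidases (cross-linking) at 0.38, and the lowest point is Adamts14 at -1.33.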

How the data were processed

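Bulk RNA-seq of 3 libraries labelled WT and 3 labelled eIF5A-KO was analysed. The authors extracted RNA with TRIzol, made libraries with an NEBNext Ultra kit, mapped reads to mm10 with HISAT and deposited raw read counts per gene. Their other deposited file gives FPKM. The annotation release, multi-mapping rule and use of strand are not given in the sources used here. Counts were tested in edgeR 4.0.16 (R 4.3.3): default expression filter, TMM factors, quasi-likelihood F test, prior count 0.125 and Benjamini-Hochberg adjustment over 14679 genes, without covariates. The script was tested on simulated data. Errors are SD unless named otherwise.

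The collagen genes and the processing and marker lists were chosen with earlier results of these data known. Values per library are given for the 2 most abundant genes of each class, genes with an unadjusted p under 0.05 or without overlap between labels, chains in the ratios, processing genes with an unadjusted p under 0.05, and Serpinh1, P4ha1, Plod2, Lox and Bmp1. Alternatives were other scalings and filters, DESeq2 1.42.0, limma 3.58.1 (voom, or log2(FPKM + 1) and log2(FPKM + 0.1)), a replicate block and each library left out. Lengths, coordinates and coding sequences were checked against GENCODE M21 (GRCm38): coordinates matched for 44 of 44 genes and lengths for 42. The result of 1 marker list is not reported here.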

Additional observations from a re-analysis of the deposited data

How the results depend on the processing

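Of the results for 16 named collagen genes under up to 17 alternatives each, 262 kept their direction and their side of an adjusted p of 0.05, a threshold that none of these genes passed in the main analysis, 7 moved past it and 2 turned direction. The 7 were Col6a2, Col23a1, Col26a1 and Col19a1 without the expression filter, Col6a2 and Col26a1 in DESeq2, and Col26a1 without WT replicate 1. Without the filter, 4 collagen genes had an adjusted p under 0.05 (background 0.924%) and 11 were higher with an unadjusted p under 0.05 (background 2.51%). In DESeq2, 2 had an adjusted p under 0.05 (background 0.599%). With at least 10 counts in every library, where Col19a1 was not tested, 1 gene was lower with an unadjusted p under 0.05 (background 3.97%) and 1 was past 2-fold (background 1.21%). On log2(FPKM + 1), 0 genes were past 2-fold (background 0.402%) and the median log2 fold change was 0.22, and on log2(FPKM + 0.1), 1 was past 2-fold (background 1.27%). The median was 0.52 in limma-voom. For the share of reads, the difference of 0.156 percentage points became 0.0122 without WT replicate 1. It was 0.0611 when Col4a1, Col4a2 and Col1a2 were not counted. Leaving out WT replicate 2, the WT library with the highest share, made the difference larger.

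With the replicate number as a block (replicate block), the median log2 fold change was 0.52 and 10 genes were higher with an unadjusted p under 0.05 (background 2.47%). Nothing in the labels says what the number marks. Deviations of same-numbered libraries correlated at 0.09, -0.20 and 0.11. With so few libraries these values cannot decide whether same-numbered libraries share an origin. Not every library correlated best with its own number. The block changed no call at an adjusted p of 0.05 among the named collagen genes. Over all tested genes it called 0.163% at that threshold, against 0.0204% in the main analysis.

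With each library left out in turn, 0 to 1 collagen genes had an adjusted p under 0.05 (background 0% to 0.372%), 2 to 4 were past 2-fold (background 1.95% to 3.19%, 4 genes without WT replicate 1 or 2), 4 to 13 were higher with an unadjusted p under 0.05 (background 1.23% to 4.72%), and the median ran from 0.14 to 0.71. Col4a2 ran from -0.044 to 0.79 and Col3a1 from -0.38 to 0.27. The differences in log2 ratio ran from -0.18 to 0.23 for Col1a1 over Col1a2, from -0.088 to 0.05 for Col4a1 over Col4a2, from -0.20 to 0.073 for Col5a1 over Col5a2, from -0.12 to 0.33 for Col6a3 over Col6a1, from 0.36 to 0.88 for Col8a1 over Col8a2 and from -0.16 to -0.08 for Col6a1 over Col6a2. The cause of these shifts was not tested. The 10 untested genes had too few reads for the filter.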
